A study of Mus musculus with 287 samples.

Results

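Zbtb20, Nfia, Nfib, Nfix, Nfic and Sox9 encode transcription factors of neural progenitors, and their counts were followed through single cells of mouse cerebral organoids. The 6 genes were taken by symbol from the 55359 gene IDs of the count tables, and all 6 were found. They were selected on measured values of these counts, among them lower exon counts of Zbtb20, Nfib and Nfix in one kind of clone than in the other. Values for that contrast are therefore given as a description, with no test.

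The cells came from organoids grown from mouse embryonic stem cells of the genotype MADM-11GT/TG;Emx1-CreER+/-. In MADM (mosaic analysis with double markers), Cre recombination between homologous chromosomes in a dividing cell can leave its daughters green and red. CreER is driven from the Emx1 locus of the dorsal forebrain, so clones can arise only from cells that use that locus, and it acts only in the presence of 4-hydroxytamoxifen. All groups received 60 nM of it on day 13 and were collected on day 20. Fluorescent cells of located clones were aspirated 1 by 1 through a glass pipette and sequenced with Smart-seq3, which covers RNA over its full length. The protocol calls the aspirated cells neurons. The labels sort 46 clones into type SN and 22 clones into type N, without saying what SN and N stand for. Neither a culture nor an organoid is named, so the spread between clones may be partly technical. Among the clones compared, the label for clone size gives SN clones 2 to 6 cells, with a median of 3, and N clones 4 to 19, with a median of 6.5.

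As background, NFI proteins bind DNA as dimers, and Nfia, Nfib and Nfix are needed for the timed differentiation of radial glia into neurons and later into astrocytes in mouse cortex. Nfia and Nfib are also made by young cortical neurons, while Nfic is the least studied of the family there. Sox9 is an HMG-box factor of radial glia that acts upstream of Nfia when progenitors turn to making glia in mouse spinal cord. Zbtb20 is a zinc finger repressor of hippocampal pyramidal neurons and of late cortical progenitors, and it promotes astrocyte formation. Fabp7, which binds fatty acids and is abundant in radial glia, and Stmn2, a microtubule regulator of growing neurons, serve here as the reference genes for these kinds of cell.

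The minimum for a cell was 1000 genes with exon counts, and 16 SN and 21 N cells fell short of it. The kept cells held between 6171 and 13040432 exon counts, and their medians were 1365828 (SN) and 1887116.5 (N). The gap was widest on plate 2, where N cells had a median of 4344830 exon counts and SN cells one of 1439140.5. A single ID without a symbol, ENSMUSG00000119584, took between 2.24% and 72.1% of a cell's exon counts (median 15.1%). Levels are exon counts per 1000000 (CPM) of the cell's or the clone's total, which includes that ID, and they are compared within a gene only. Fabp7 was counted in 95.5% of the cells and Stmn2 in 96.8%, so nearly all cells held counts of both reference genes.

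Most cells held reads of most of the 6 genes. Nfib (ENSMUSG00000008575) was counted in 94.7% of kept cells (95% Wilson interval 91.2 to 96.9, counting error only). Nfix (ENSMUSG00000001911) was counted in 93.9% and Nfia (ENSMUSG00000028565) in 91.5%. Zbtb20 (ENSMUSG00000022708) was counted in 82.2%, Sox9 (ENSMUSG00000000567) in 74.1% and Nfic (ENSMUSG00000055053) in 42.1%. Nfia, Nfib and Nfix were counted together in 85.4% of cells, and a single cell had none of these 3 NFI genes. All 6 genes were counted in 89 cells (36.0%), 5 of them in 76 and 1 alone in 5. No cell was without any of the 6.

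Within each gene the level varied widely from cell to cell. Zbtb20 lay between 0 and 5706 CPM (median 170.7 CPM), and 28 cells passed 1000 CPM. Nfib had a median of 652 CPM and reached 5190 CPM, with 88 cells over 1000 CPM. Nfia had a median of 198.96 CPM and reached 2917 CPM, and Nfix had a median of 191.6 CPM and reached 2121 CPM. Sox9 had a median of 39.5 CPM and a maximum of 1098 CPM. Nfic, with a median of 0 CPM and a maximum of 284.8 CPM, was the sparsest, with 10272 exon counts over all kept cells against 574019 for Nfib. The 15 labelled cells just outside the minimum, with 500 detected genes or more, held Zbtb20 in 3 cells, Nfib in 5 and Nfix in 10. The 12 kept cells just inside it held each of these 3 genes in 8 cells.

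Summed over the kept cells of a clone, Zbtb20 was higher in N than in SN clones. In the 42 SN clones with at least 2 kept cells its lowest value was 27.1 CPM, its median 196.5 CPM and its highest 985 CPM (mean 308, SD 269.3). In the 20 N clones the lowest was 0, the median 304 CPM and the highest 2895 CPM (mean 604, SD 762). The groups overlapped below 1000 CPM, and the highest N clones, clone 45 at 2895 CPM and clone 39 at 2462 CPM, stood far above the highest SN clone. The fitted SN minus N difference was -0.93 ± 0.35 on the log2 scale (SE) with plate as a term, where the median of the 11914 genes fitted was -0.11.

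The size of that difference varied with the clones left in and with how cells were weighted. With all clones kept, equal weight per cell in limma gave -0.30 ± 0.43, where the median over all genes was itself -0.40. Clones of 4 to 6 cells alone, a range that leaves out clones 39 and 45, gave -0.38 ± 0.49 (median over genes -0.06). Without clones 39 and 45 the N clones had a mean of 373 CPM (SD 282.9, n = 18) and a median of 288.1 CPM. The fitted difference was then -0.31 ± 0.34 (median over genes -0.09). Leaving out clone 45 alone gave -0.57 and clone 39 alone -0.67. Of the 17 N cells with more than 1000 CPM of Zbtb20, 12 belonged to these 2 clones, and the 17 cells came from 5 clones. All 9 cells of clone 39 held Zbtb20, from 332 to 5706 CPM with a median of 2371 CPM. In clone 45 all 10 cells held it, from 123.8 to 3932 CPM with a median of 1275 CPM. Clone 45 is labelled on both plate 2 and plate 3: its 3 cells on plate 2 had 1970 to 3932 CPM and its 7 cells on plate 3 had 123.8 to 1945 CPM. The 16 cells of clone 16 ran from 0 to 3334 CPM with a median of 223.6 CPM.

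**Figure D1:**
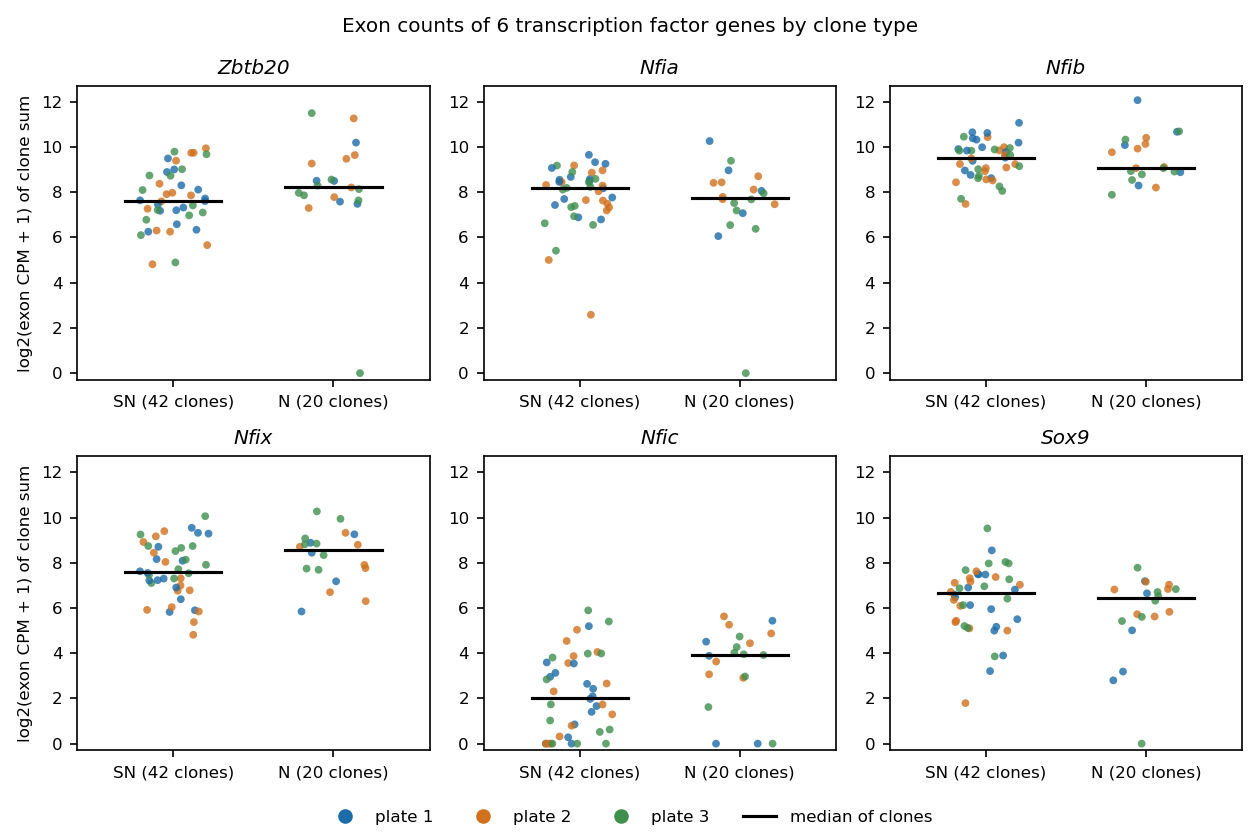
Exon level of each gene per clone, as log2(CPM + 1) of the clone sum, for 42 SN and 20 N clones with at least 2 kept cells. Points are clones coloured by plate and bars are medians. SN and N clones overlap in every panel, and in the Zbtb20 panel clones 45 (2895 CPM) and 39 (2462 CPM) lie above all other clones.

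Markers of mesenchyme and choroid plexus, cells that organoids can also hold, lay on the same side as Zbtb20. All 5 tested genes of the mesenchyme list lay higher in N, with a median SN minus N difference of -2.05, and Ttr of choroid plexus differed by -4.44 ± 1.42. None of them passed edgeR's quasi-likelihood test with Benjamini-Hochberg adjustment (adjusted p = 1 for Ttr). The summed mesenchyme list had a median of 0.588 CPM in SN cells (range 0 to 1947) and 16.6 CPM in N cells (range 0 to 2521). Over kept cells Zbtb20 had a Spearman rho of 0.126 with the mesenchyme list and 0.134 with the choroid plexus list. Among 62 clones, clone 45 had rank 5 for the sum of mesenchyme genes (230.1 CPM), rank 2 for microglia and endothelium genes (338 CPM) and rank 9 for choroid plexus genes (248.5 CPM). Clone 39 had rank 22 for mesenchyme (73.6 CPM) and rank 9 for genes of hippocampus and medial cortex (761 CPM, against a median of 447 CPM over clones). For late progenitor and astroglial genes clone 39 had rank 9 (6924 CPM, against a median of 2922 CPM) and clone 45 rank 43 (2194 CPM), and for genes of young excitatory neurons they had ranks 50 and 32. Clone 3, with rank 3 for Zbtb20 (1173 CPM), had rank 54 for mesenchyme (0.277 CPM) and rank 29 for choroid plexus (2.77 CPM). In the other lists 2 of 5 tested oligodendrocyte lineage genes, 1 of 2 microglia and endothelium genes, 1 of 5 GABAergic genes and 2 of 5 Cajal-Retzius genes lay above 0. The part of such cells' RNA in the Zbtb20 values was not tested, nor can fewer cells of a kind and less RNA per cell be told apart in the clone sums.

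Nfib, Nfia and Nfix had smaller fitted differences between SN and N clones than Zbtb20, and not all in the same direction. Nfib lay between 177.8 and 2151 CPM in SN clones, around a median of 731 CPM, and between 236.2 and 4308 CPM in N clones, around a median of 545 CPM. Its fitted difference was -0.25 ± 0.20 although its median was higher in SN, and its N mean of 951 CPM was 775 CPM without clone 3, the clone at 4308 CPM. Without clones 39 and 45 the difference of Nfib was -0.09 ± 0.21 and that of Nfia 0.24 ± 0.31. Nfia lay between 4.99 and 806 CPM in SN clones, around a median of 289.8 CPM, and between 0 and 1229 CPM in N clones, around a median of 213.6 CPM, with a fitted difference of 0.03 ± 0.30. Nfix lay between 27.1 and 1066 CPM in SN clones (median 191.2 CPM) and between 56.4 and 1237 CPM in N clones (median 382 CPM). Its fitted difference was -0.48 ± 0.29. The sign was the same under all 17 alternatives tried, as it was for Zbtb20 and Sox9. These alternatives refit the same clones on which the genes were chosen, so a kept sign is no test. The ranges of both types overlapped for Nfib, Nfia and Nfix, and the highest clone of each was an N clone.

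Nfic and Sox9 lay on opposite sides. Nfic had a median of 3.10 CPM in SN clones (0 to 58.5) and 14.3 CPM in N clones (0 to 48.5), with 8 SN and 3 N clones at 0 and a fitted difference of -1.01 ± 0.70. Its CPM followed depth more than that of the other 5 genes (Spearman rho of 0.41 with the exon total over kept cells). After each cell was thinned to 100000 exon counts, which left out 10 SN and 12 N cells, Nfic was counted in 27.3% of SN and 28.8% of N cells. Sox9 had a median of 99.6 CPM in SN clones (2.46 to 733) and 84.98 CPM in N clones (0 to 219.001), a fitted difference of 0.53 ± 0.39. Thinned in the same way, Sox9 was counted in 73.6% of SN cells (interval 65.1 to 80.6) and 62.5% of N cells (52.9 to 71.2). Zbtb20 was counted in 83.5% of SN cells (75.8 to 89.04) and 75.96% of N cells (66.9 to 83.2). The intervals hold counting error only and take cells of 1 clone as independent, so they do not compare the types. The share of cells with Zbtb20 exon counts was smaller in N while its sum was larger in N clones. Zbtb20 introns were counted in 98.3% of N and 97.7% of SN kept cells, without thinning. The 12 highest N cells held 53.7% of the summed N CPM and the 13 highest SN cells 39.7% of the summed SN CPM.

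N clones had the higher median on all 3 plates for Zbtb20, Nfix and Nfic. For Zbtb20 the medians were 617 CPM (N, plate 2), 362 CPM (N, plate 1), 265.5 CPM (N, plate 3), 236.1 CPM (SN, plate 2), 194.1 CPM (SN, plate 1) and 170.1 CPM (SN, plate 3). Neighbours in that order overlapped in range, since single clones ran from 0 to 2895 CPM. Nfic had medians of 13.8 to 20.7 CPM in N clones and of 2.33 to 3.26 CPM in SN clones over the plates, with clones at 0 in both types. For Nfib the order followed the plates, with 1086 CPM (N) and 962 CPM (SN) on plate 1, 872 and 575 CPM on plate 2 and 485 and 569 CPM on plate 3. Nfia was higher in SN on plates 1 and 3 (357 against 266.3 CPM, and 277.3 against 164.1 CPM) and higher in N on plate 2 (277.1 against 232.01 CPM). Nfix had N medians of 347, 238.5 and 455 CPM on plates 1, 2 and 3, against SN medians of 186.3, 117.9 and 280.4 CPM. Sox9 had the higher median in SN on plates 1 and 3 (88.01 against 31.2 CPM, and 123.4 against 84.98 CPM) and in N on plate 2 (111.8 against 92.2 CPM).

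In the fit over all 11914 genes the SN to N comparison gave no calls. With edgeR's quasi-likelihood test 0 genes (0%) passed an adjusted p of 0.05, 39 genes were higher in SN and 1.74% of all genes lower at an unadjusted p under 0.05, and DESeq2 called 2 genes. The balance at an unadjusted p under 0.05 changed with the tool, with 1.44% higher and 1.95% lower in DESeq2 and 0.143% higher and 9.26% lower in limma with equal weight per cell, where the median over genes was 0.00 and -0.40. Of 9 genes that NFI proteins or Sox9 are known to act on, 5 lay above 0 and 4 below, with a median difference of 0.03. The list was not split into activated and repressed genes, so this balance cannot show whether targets changed. Fabp7, an NFI target in mouse, differed by 0.96 ± 0.36 (edgeR, adjusted p = 1). The wider list of late progenitor and astroglial genes had 14 of 21 members above 0 with a median of 0.26, where 40.2% of all genes lay above 0. Ptprz1, a receptor of radial glia, differed by 0.20 ± 0.29, and the glutamate transporter Slc1a3 by 0.61 ± 0.51. Above 0 were also 9 of 10 radial glia genes (median 0.28), 4 of 10 early progenitor genes (-0.30), 5 of 11 genes of hippocampus and medial cortex (-0.05) and 3 of 14 genes of young excitatory neurons (-0.16). None of the genes in these lists passed the test, and the lists were put together with earlier results of these counts known.

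Zbtb20 reads lay more in introns than in exons. Of its reads in kept cells 582441 were intron and 344295 exon counts, an intron share of 62.8% against a median of 18.5% over 9750 genes. Its introns were counted in 97.98% of kept cells and its exons in 82.2%, and 44 cells held intron counts alone while 5 held exon counts alone. Nfic (60.4%) and Nfia (56.1%) also had intron shares above the gene median, as had Nfib (34.8%) and Nfix (27.3%). Sox9, a gene with short introns, had 1023 intron counts against 62477 exon counts, a share of 1.61%. Over cells, exon and intron CPM of the same gene were related with a Spearman rho of 0.38 for Zbtb20 and Nfix, 0.32 for Nfia and Nfib, 0.30 for Nfic and 0.27 for Sox9, against 0.79 for Fabp7 (kept cells, which share clones, plates and depth).

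**Figure D2:**
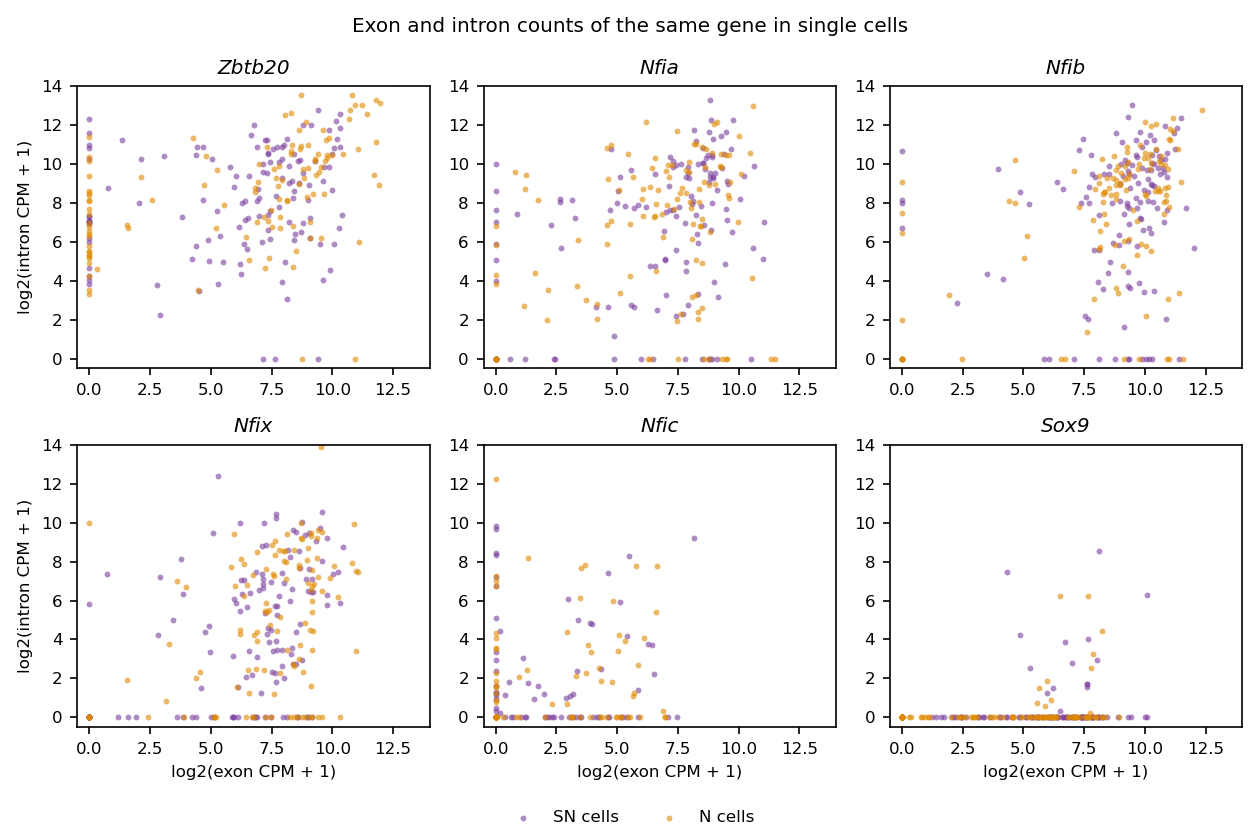
Exon against intron level of each gene in kept SN and N cells, as log2(CPM + 1) of the cell's exon or intron total. The column of Zbtb20 points at an exon level of 0 is the 44 cells with intron counts only, and Sox9 points lie at an intron level of 0 except in 26 cells.

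The intron table placed the SN to N difference of Zbtb20 in the same direction, with the same 2 clones at the top. Zbtb20 introns had a median of 845 CPM of intron counts in SN clones (5.06 to 4912) and 902 CPM in N clones (71.1 to 9219), with clone 39 at 9219 and clone 45 at 8943 CPM. The fitted difference was -0.77 ± 0.44, with a range of -1.37 to 0.05 over 17 alternatives, and -0.10 ± 0.47 without both clones. The other fitted differences in introns were -0.62 ± 0.36 for Nfib, -0.50 ± 0.84 for Nfic, -0.28 ± 0.46 for Nfix and -0.02 ± 0.52 for Nfia, and Sox9 did not pass the filter on low counts. The plates disagreed: Nfia introns differed by -1.43 ± 0.77 on plate 1 and 1.31 ± 0.78 on plate 3, and Nfib introns by -1.65 ± 0.63 and 0.27 ± 0.62. Of 11050 genes tested in introns 0 (0%) passed in edgeR, 1.55% were higher and 4.78% lower at an unadjusted p under 0.05, and DESeq2 called 50. The balance turned in DESeq2, with 7.31% higher and 4.56% lower and a median over genes of 0.17, against -0.10 in edgeR.

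Other annotated genes overlap these genes. The counting is not stated to use strand, and E130114P18Rik, on the opposite strand within Nfia, held 28926 exon counts in 77 cells, while Gm15712, a pseudogene within Zbtb20, held 10830 in 22 cells. G430095P16Rik, opposite Nfix, held 14909 intron counts. The levels of Nfia, Nfix and Zbtb20 are uncertain where such genes overlap them.

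Most of the spread in all 6 genes lay between cells of the same clone. The share of the variance of log2(CPM + 1) lying between clones was 0.17 for Nfix, 0.16 for Nfia, 0.14 for Zbtb20, 0.12 for Nfib, 0.08 for Sox9 and -0.03 for Nfic (62 clones), where the median of 9750 genes was 0.04 and Fabp7 reached 0.35. After thinning, the shares were 0.14 for Nfix, 0.09 for both Zbtb20 and Nfib and 0.08 for Nfia. In N clones the shares were 0.27 for Zbtb20, 0.28 for Nfia and 0.29 for Nfix, and in SN clones they were -0.0011 for Zbtb20, 0.04 for Nfia and 0.01 for Nfix. Sox9 had 0.17 in N and -0.05 in SN clones and Nfic 0.04 and -0.10, while Nfib had nearly equal shares of 0.14 and 0.13. The medians over genes were 0.05 in N and 0.02 in SN clones. The difference between the types was not tested, and SN clones held fewer cells each.

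Within clones exon counts of the genes were often found in some cells and not in others. Zbtb20 was counted in all kept cells of 35 clones, in some cells of 26 and in none of 1, the N clone 59 with 2 cells. Nfib was counted in every cell of 51 clones and Nfia in every cell of 46, while Sox9 was mixed in 38 clones and Nfic in 45. The median range of Zbtb20 within a clone was 505 CPM, and clone 39 had the widest at 5374 CPM. For Nfib the widest range was 5190 CPM in clone 3, whose 5 kept cells had a median of 273111 exon counts against 5673260 in clone 39 and 453847 in clone 45. Clone 3 had rank 1 of 62 for both Nfib (4308 CPM) and Nfia (1229 CPM), rank 3 for Zbtb20 (1173 CPM) and rank 60 for Sox9 (5.96 CPM), and it had rank 62 for the sum of late progenitor and astroglial genes (129.9 CPM).

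**Figure D3:**
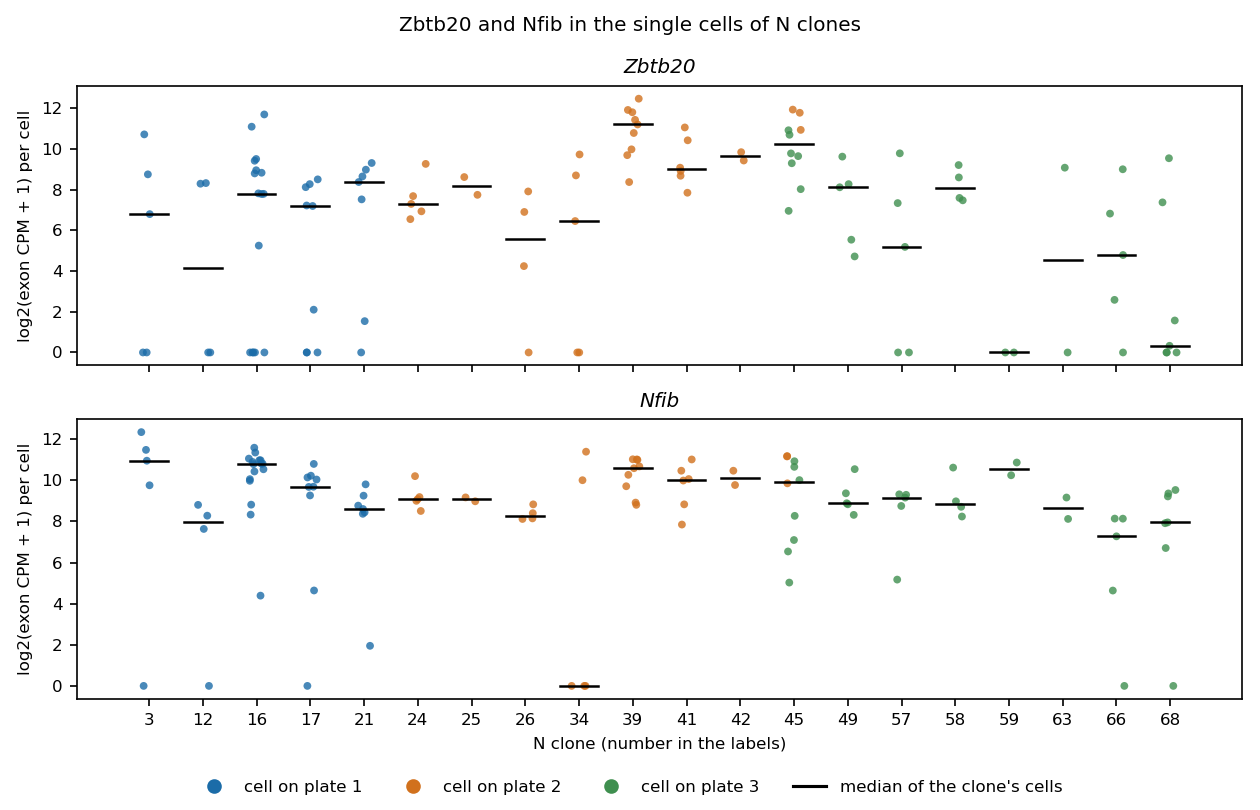
Zbtb20 and Nfib in the single kept cells of the 20 N clones, as log2(exon CPM + 1), with cells coloured by plate and a bar at the median of each clone. Clones 39 and 45 hold no cell without exon counts of Zbtb20, while clone 59 holds none with them, and 3 of the cells of clone 34 have no exon counts of Nfib.

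Of the 6 genes, Sox9 had the highest correlation with Fabp7. Over kept cells Sox9 and Fabp7 had a Spearman rho of 0.27 (Pearson r 0.28), above 99.5% of 9749 genes, whose median was 0.00. The relation had the same sign in SN cells (0.27), in N cells (0.22), on plates 1, 2 and 3 (0.33, 0.12 and 0.18), in thinned cells (0.32) and over 62 clone sums (0.45). Nfib went the other way in rho alone, with a value of -0.18 that lay above only 0.54% of genes. Its Pearson r was 0.01 over kept cells, -0.07 in SN cells and 0.08 in N cells. The rho of Nfib was -0.30 in SN cells and -0.04 in N cells, and -0.30, -0.08 and 0.08 on plates 1, 2 and 3. For Zbtb20 (0.03), Nfia (0.05), Nfic (0.05) and Nfix (-0.08) the values lay within the range of 90% of genes (-0.11 to 0.14). These are descriptions over cells that share clones, plates and library depth.

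Over kept cells the correlations with Stmn2 were weak for all 6 genes. The rho with Stmn2 was -0.03 for Zbtb20 and 0.00 for Sox9, both low among 9749 genes whose median was 0.12 (above 1.91% and 5.00% of them). Nfix had a rho of 0.13, with 0.34 in SN cells and -0.09 in N cells, and 0.14, 0.26 and 0.26 on plates 1, 2 and 3. Nfic, Nfia and Nfib had values of 0.11, 0.10 and 0.08. Over 62 clone sums the values were -0.29 for Sox9, -0.26 for Nfic, 0.20 for Nfib, 0.15 for Nfix, 0.01 for Zbtb20 and -0.01 for Nfia. Stmn2 itself went with depth (rho 0.32 with the exon total), as did Zbtb20 (0.24), Nfix (0.23) and Sox9 (0.29). In totals that left out ENSMUSG00000119584 the values were -0.08 for Zbtb20, -0.04 for Nfib, -0.02 for Sox9, 0.03 for Nfia and 0.11 for Nfix.

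**Figure D4:**
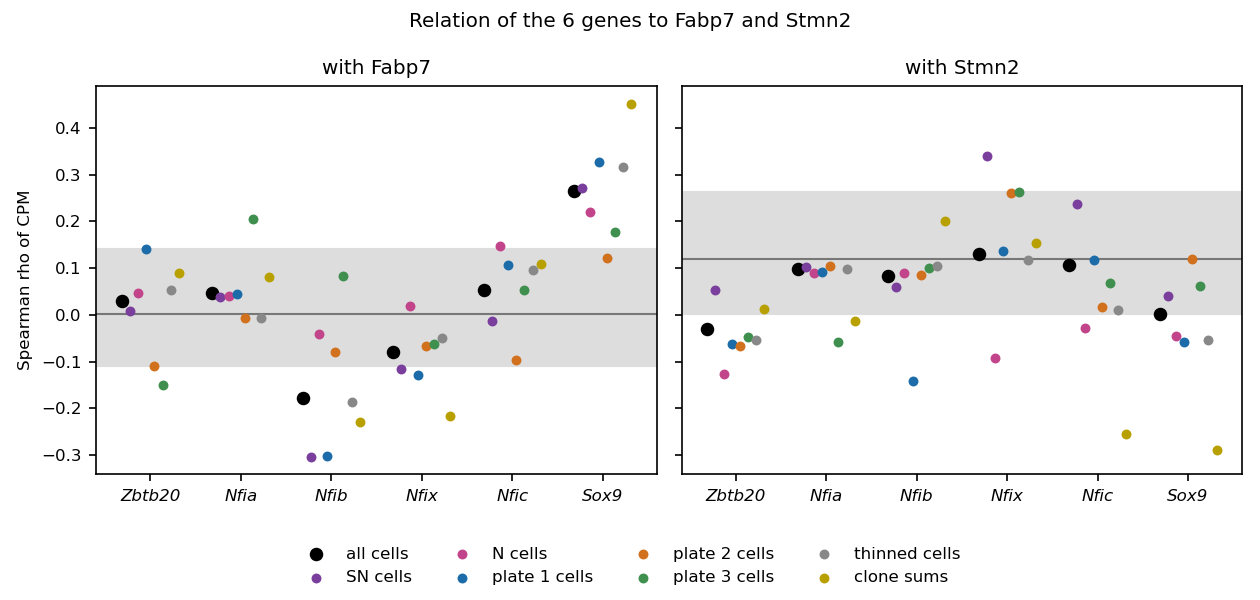
Spearman rho of each gene's CPM with Fabp7 and with Stmn2 over all kept cells (large black points), in subsets of cells, in thinned cells and over clone sums. Grey bands hold the middle 90% of genes counted in at least 25% of cells and grey lines their median. Sox9 lies above the band for Fabp7 (0.27) and Nfib below it (-0.18).

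Pairs among the 6 genes ranged from no correlation to moderate ones. Nfia and Nfib had the highest rho of the 15 pairs (0.36 over kept cells, 0.40 in thinned cells and 0.57 over 62 clone sums). Next came Zbtb20 with Nfia (0.30), Nfib with Nfix (0.29) and Nfic with Sox9 (0.27). Nfib with Sox9 (-0.03), Nfix with Nfic (0.02), Nfib with Nfic (0.05) and Nfix with Sox9 (0.08) lay at the low end, and over clone sums these 4 pairs had -0.31, -0.10, -0.03 and -0.10. Among all pairs of the 4258 genes counted in at least 50% of cells the median was 0.21 and the middle 90% ran from 0.00 to 0.34, so only the pair of Nfia and Nfib lay above that range.

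The genes most like each of the 5 more widely counted ones were found by Spearman rho over the same cells, among 4257 genes. Sox9 was most like Sox2 (0.44), the progenitor factor of the same family, followed by Arl4c (0.42) and Mta2 (0.42). Nfib was most like Sox11 (0.51), a factor of newborn neurons, then Tcf4 (0.46) and the RNA-binding protein gene Celf2 (0.45). Zbtb20 was most like the semaphorin receptor gene Nrp1 (0.41), the ephrin receptor gene Epha4 (0.38) and Frmd4a (0.38). Nfia was most like Tia1 (0.37), Nfib (0.36) and Tcf7l2 (0.34), and Nfix was most like Bcl7a (0.40), Mtss1 (0.40) and Avl9 (0.39). In thinned cells these values lay between 0.26 and 0.53.

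The summed marker lists were related to different genes among the 6. The radial glia list had a rho of 0.36 with Sox9, 0.11 with Zbtb20, 0.02 with Nfib and -0.11 with Nfix. The list of young excitatory neurons had 0.23 with Nfib, 0.22 with Nfix, -0.07 with Zbtb20 and -0.15 with Sox9. The late progenitor and astroglial list, which holds Fabp7, had 0.30 with Sox9, 0.10 with both Zbtb20 and Nfic and 0.06 with Nfia. It had -0.04 with Nfix and -0.20 with Nfib. The list of hippocampus and medial cortex, which holds Prox1 and Meis2, had its highest value with Nfib (0.35) and 0.23 with Zbtb20. Zbtb20 had similar values with the Cajal-Retzius list (0.24) and the microglia and endothelium list (0.23). The early progenitor list, with Ccnd2 and Igf2bp1, had 0.33 with Sox9 and 0.31 with Nfia. The genes themselves also went with the number of genes detected in a cell (rho 0.35 for Zbtb20, 0.38 for Sox9 and 0.14 for Nfib), and its part in these values was not tested.

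Green and red cells of the same clone, a comparison that did not enter the choice of genes, gave no call for any of the 6. In 45 clones with both colours Zbtb20 was higher in green in 21 and in red in 24, with medians of 170.002 CPM (0 to 5426) and 240.7 CPM (0 to 2950), and the ranges overlapped. Its fitted green minus red difference with clone as block was -0.08 ± 0.47 (edgeR, adjusted p = 1). Nfia was higher in green in 25 clones and in red in 20, with a difference of 0.52 ± 0.47, the largest of the 6. Nfix (0.13 ± 0.45), Sox9 (0.15 ± 0.69), Nfib (-0.08 ± 0.33) and Nfic (-0.15 ± 0.92) also missed the threshold (adjusted p = 1 for each). Of all 7437 genes 0 (0%) passed, 96 were higher and 26 lower at an unadjusted p under 0.05, and the median over genes was 0.18.

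**Figure D5:**
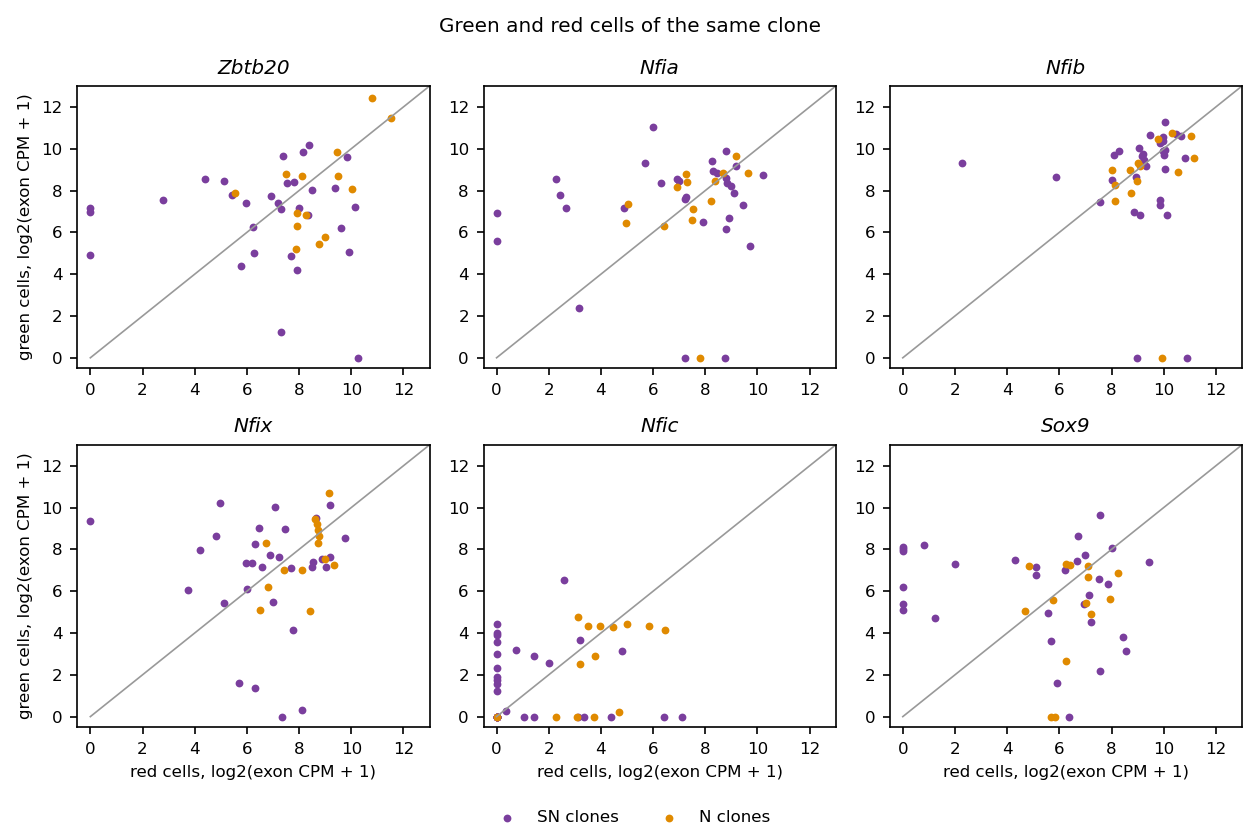
Green against red cells of the same clone for 45 clones with both colours, as log2(exon CPM + 1) of the sums per clone and colour. The line marks equal levels. Zbtb20 lies above the line in 21 clones and below it in 24.

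The colour difference was compared between clone types. In the 31 SN clones Sox9 was higher in green in 18 and in the 14 N clones in 5, and Nfic in 15 and 3. The fitted difference between the types was 1.67 ± 1.40 for Sox9, 2.56 ± 1.82 for Nfic, 0.81 ± 0.98 for Zbtb20, 0.59 ± 0.93 for Nfix and 0.11 for both Nfia and Nfib (± 0.97 and 0.71). The median over all genes was itself 0.99, so only Sox9 and Nfic exceeded it. None passed (adjusted p = 0.999 for each gene), and of 7437 genes 0 (0%) did in edgeR, with 3.55% higher and 0.0269% lower at an unadjusted p under 0.05.

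Clone size gave no call for any of the 6 genes. Per doubling of the labelled clone size, with plate and type in the fit, Zbtb20 had a slope of 0.59 ± 0.33 log2 units (adjusted p = 1.00), and 0.04 without clones 39 and 45. Its slope was 1.23 in N clones alone and 0.05 in SN clones alone, and neither passed. In N clones of 7 to 19 cells Zbtb20 had a median of 362 CPM (178.2 to 2895, n = 10) and in N clones of 4 to 6 cells one of 256.5 CPM (0 to 1173, n = 10), with overlap. SN clones of 4 to 6 cells had 240.3 CPM (27.1 to 985, n = 19) and those of 2 to 3 cells 194.1 CPM (28.8 to 888, n = 23). The other slopes were 0.44 ± 0.71 for Nfic, 0.35 ± 0.27 for Nfia, 0.33 ± 0.40 for Sox9, 0.31 ± 0.18 for Nfib and 0.19 ± 0.28 for Nfix, with a median of 0.07 over genes. All 6 lay above 0, as did 55.4% of all genes, but in N clones alone Nfix had -0.04 and Sox9 -0.25. Of 11914 genes 0 (0%) passed in edgeR, 1.64% were higher and 0.940% lower at an unadjusted p under 0.05, and DESeq2 called 7, with 2.30% higher and 2.62% lower.

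Between plates Nfib alone of the 6 passed. Its clone sums had a median of 989 CPM on plate 1 (314 to 4308, n = 20), 605 CPM on plate 2 (177.8 to 1388, n = 21) and 519 CPM on plate 3 (208.4 to 1654, n = 21). The plate term had an adjusted p of 0.0469 (edgeR), where 664 of 11914 genes (5.57%) passed. Plate differences are part of the spread over clones, which was among the values that chose the 6 genes, so this result is a description. The plates overlapped, with plate 1 highest. Nfix, with medians of 191.2, 157.6 and 365 CPM, had an adjusted p of 0.222, Sox9 of 0.392, Nfia of 0.547, Zbtb20 of 0.683 and Nfic of 0.870. Plate 1 clones also had the highest median of Stmn2 (4440 CPM against 3599 and 2149 CPM).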

How the data were processed

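Single cells of mouse cerebral organoids were profiled with Smart-seq3. The deposited files hold raw exon counts and raw intron counts per gene and cell. Reads were aligned with STAR 2.7.9a to GRCm39 and handled in R 4.4.0, per the submitters' processing notes. How counts were assigned, and whether molecular identifiers or strand were used, is not given in the sources used here. Symbols came from a GENCODE annotation of another build, used for names and overlaps only, and matched 52083 of 55359 IDs.

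Labelled cells with exon counts in at least 1000 genes were kept, 131 of 147 SN and 116 of 137 N cells (247 in all, the n of each correlation over kept cells), and counts were summed over clones with at least 2 such cells. Clone type, plate and colour came from the labels, and clone 45, labelled on both plates 2 and 3, was set to plate 3 in the fits. Cells of 1 clone are not replicates, so clones were the unit of every fit. Clone sums were fitted with edgeR 4.0.16 (TMM, filterByExpr, quasi-likelihood F test, Benjamini-Hochberg threshold 0.05), with plate as a term, or with clone as block for colour. The SE is the log2 difference divided by the square root of F. DESeq2 1.42.0 and limma 3.58.1 served as alternatives, and the fits were tested on simulated data. Depth was compared after thinning cells to 100000 exon counts. Correlations used log2(CPM + 1) over cells that share clones, plates and depth, and carry no p.

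The 6 genes, the gene lists and the tests were chosen with earlier results of these data known. Besides the 6 genes, Fabp7 and Stmn2, the text names up to 4 genes of highest mean CPM in each list and, for each of the 6 counted in at least 50% of cells, the 3 genes of highest correlation. Cells with no clone label entered no comparison. At an unadjusted p under 0.05, the counts of genes higher and lower were 39 and 207 for SN against N in exons, 171 and 528 in introns, 195 and 112 for clone size, and 264 and 2 for the difference of colour effects between types.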

Additional observations from a re-analysis of the deposited data

Results flagged for a closer look

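Among the N clones set to each plate, 1 lay far above the others in Zbtb20. On plate 1 clone 3 had 1173 CPM where the next of 5 clones had 363 CPM. On plate 2 clone 39 had 2462 CPM where the next of 7 had 799 CPM. Clone 45, set to plate 3, had 2895 CPM where the next of 8 had 377 CPM. That sum pools its 3 cells on plate 2 (1970 to 3932 CPM) with its 7 on plate 3 (123.8 to 1945 CPM, median 805). It is therefore not a gap within plate 3 alone. Pooled in the same way, clone 45 also stood apart in Nfia, at 671 CPM against 246.9 CPM for the next clone. These 4 gaps, of 18 groups of clones looked at, passed the 95% critical value of Dixon's test, which chance passes in about 1 of 20 groups of independent, normally distributed values. CPM is skewed, clone 45 enters for both Zbtb20 and Nfia, and the spread of these genes over clones was among the values that chose them, so the gaps are a description and no test.

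The cells without a clone label were used in no comparison, and 2 of the 3 held exon counts of these genes, while the third held 2 intron counts of Zbtb20. Their highest levels were 3750 CPM for Zbtb20, 1608 CPM for Nfib, 788 CPM for Nfia, 520.2 CPM for Nfix, 188.7 CPM for Sox9 and 98.8 CPM for Nfic. The cell at 3750 CPM of Zbtb20 had counts in 13298 genes, against a median of 5316 in the labelled cells kept.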

How the results depend on the processing

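Counts of calls depended most on the filter on low counts. Without it, edgeR called 6861 genes between SN and N in exons, 2371 in introns, 15535 between plates, 3710 with clone size and 1 between colours. DESeq2 called 2 genes in exons, 50 in introns and 7 with clone size. For SN and N in exons, equal weight per cell in limma gave 1 call and cells with at least 2000 genes gave 2. In introns, cells with at least 2000 genes gave 1, leaving out plate 3 gave 3, clones of 4 to 6 cells gave 2 and including single-cell clones gave 2. Clone size without clone 16 gave 1 call, and colour on plate 3 alone gave 1. The cause of these changes was not tested. The other 35 counts were 0, as was the main count of each. Of the alternative values for single genes, 381 stayed within their spread or on the same side of the threshold. For SN against N that spread was the pooled SD of log2(CPM + 1) over clones. For Zbtb20 exons the SD was 1.32 in SN and 2.28 in N clones, against a difference of -0.93, so a sign change could stay within it. With clone size and colour no gene of the 6 passed in any alternative. The count of 381 is therefore no measure of stability, and values near 0 could change sign (Nfia between SN and N in 4 of 17 alternatives). Another 25 moved further: 13 correlations with Fabp7, 11 with Stmn2, and the intron difference of Nfic, which was -4.20 with single-cell clones included. The DESeq2 fit between colours was not run. The SN to N differences by plate alone, and the alternatives without clones 39 and 45 together and without the most counted ID were chosen after seeing the data. No paired analysis was possible because the replicate numbers only name cells in order of deposit and pair none across clone types; green and red cells of 1 clone were instead fitted with clone as block. Nfic exons, counted in 42.1% of cells, and Sox9 introns, in 10.5%, were the sparsest of the 6 genes, and differences in them may not be detectable at this depth.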
